A study of Mus musculus with 12 samples.

Results

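The genes described here encode the adaptor and signalling proteins of focal adhesions, the sites at which integrins clasp the extracellular matrix outside the cell and the actin cytoskeleton inside it. They are the talins Tln1 and Tln2, vinculin (Vcl), zyxin (Zyx), paxillin (Pxn), focal adhesion kinase (Ptk2), integrin-linked kinase (Ilk), alpha-parvin (Parva), tensin 1 (Tns1) and Hic-5 (Tgfb1i1). The 10 members were taken by symbol from a table of 23358 gene rows. Each was present as a row, and all 10 passed the filter on low counts that kept 13534 rows for testing.

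The cells were mouse bone marrow-derived mesenchymal stem cells (BMSCs), plastic-adherent stromal cells with the potential to form osteoblasts, adipocytes and chondrocytes. In 3 libraries each they were treated for 24 h with cytochalasin D and CK666 together (CytoD+CK), with cytochalasin D alone (CytoD), or with CK666 alone (CK), or were labelled as having no treatment (Ctrl). Cytochalasin D, a product of fungi, blocks growth of actin filaments at their barbed ends, and CK666 inhibits the Arp2/3 complex, which starts branches on actin filaments. All groups shared a medium with 10% serum, plating at 10000 cells per square centimetre and 1 day of culture before treatment. The strain and age of the mice, the passage of the cells, the concentrations of the compounds and any solvent in Ctrl are not stated in the labels. Nothing says that replicates came from separate animals or cultures, so p-values measure library-to-library spread alone, which may be technical.

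As background, talin binds the tails of integrins and switches them on, and vinculin binds talin that has been stretched by actin and adds further links to actin. ILK, a pseudokinase, forms a stable complex with parvin and a PINCH protein at the integrin tail, while paxillin and its relative Hic-5 are LIM-domain scaffolds that bring in focal adhesion kinase. Zyxin marks adhesions under tension and brings Ena/VASP proteins to actin, and tensin 1 is found in the long fibrillar adhesions on which fibronectin fibrils are laid down. Several genes of the actin cytoskeleton, Vcl among them, are known targets of serum response factor (SRF), whose MRTF cofactors bind actin monomers.

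Promoter windows of RefSeq (build GRCm38.p6) were at hand for 5 of the 10 members, Vcl, Tln1, Zyx, Ilk and Tns1, and not for Tln2, Pxn, Ptk2, Parva and Tgfb1i1. The 250 bases before the start of Vcl and of Zyx, the members with the deepest falls after CytoD, are shown 5′ to 3′ on the plus strand, at chr14:20929148-20929397 for Vcl and at chr6:42349578-42349827 for Zyx. Capitals mark a CArG box, the sequence bound by SRF (CC, then A or T at the 6 middle positions, then GG), and GGAATG, the core bound by the TEAD partners of YAP.
Vcl: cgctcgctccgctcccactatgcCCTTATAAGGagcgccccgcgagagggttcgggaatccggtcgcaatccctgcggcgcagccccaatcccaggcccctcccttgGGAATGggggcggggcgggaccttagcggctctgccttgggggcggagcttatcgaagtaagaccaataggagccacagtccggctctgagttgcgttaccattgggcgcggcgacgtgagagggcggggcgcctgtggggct
Zyx: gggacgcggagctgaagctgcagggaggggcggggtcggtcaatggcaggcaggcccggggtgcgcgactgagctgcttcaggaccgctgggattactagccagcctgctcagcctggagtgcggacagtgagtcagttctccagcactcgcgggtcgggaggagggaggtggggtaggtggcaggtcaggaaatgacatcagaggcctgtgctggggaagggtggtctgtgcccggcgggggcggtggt
Both strands were searched. A CArG box was found in Vcl, 227 bases before the start, and in none of the other 4 members with a window; the share with such a box among all 32851 windows of this length is 1.467%. GGAATG or its reverse complement was found in Vcl alone of these 5 genes, 143 bases before the start, and in 12.642% of all windows. The GC box core GGGCGG or its reverse complement, which does not overlap these matches and stands in 32.742% of all windows, was present in Vcl, Zyx, Tns1 and 1 of 2 windows of Ilk and not in Tln1. These are matches of letters, and binding was not measured.

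Total gene counts lay between 48930210 and 69269716 per library, so that a count of 0 allows a level of at most 0.0634 CPM (counts scaled to a common library size by the TMM method), from 3 counts and for counting error only. All counts were even, and this limit is too low if both reads of a pair were counted. CK replicate 3 stood apart from the other CK libraries: its median absolute log2 difference from replicates 1 and 2 was 0.289 and 0.276, against 0.126 between those, and the difference fell with gene length (r = -0.377 and -0.465 across genes, which are not independent replicates). Among the members it lay 0.52 below the mean of CK replicates 1 and 2 for Vcl and 0.27 below it for Tns1 on the log2 scale, and 0.36 above it for Tgfb1i1 and 0.24 for Ilk. Every call of a member in CK against Ctrl was also made without that library, with log2 changes from -1.18 for Zyx to -0.35 for Ptk2.

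Of 11 marrow stromal markers, 10 passed the filter; 1 rose and 5 fell in CytoD+CK, 4 rose and 3 fell in CytoD, and 1 rose and 5 fell in CK. Their summed level over all 11 was 8150 to 8500 CPM in CytoD+CK, 22100 to 24700 CPM in CytoD, 8660 to 9950 CPM in CK and 14200 to 17400 CPM in Ctrl. Cxcl12 weighs most in these stromal sums, with a mean log2 CPM of 13.22 against 11.68 or less for the other stromal markers tested. Against Ctrl, Cxcl12 was called higher in CytoD and lower in CK and in CytoD+CK, whereas Col1a1, Cd44 and Ly6a were called lower in each treated group. All 7 adipocyte markers (Adipoq, Plin1, Cfd, Cd36, Lipe, Fabp4 and Lpl) rose in each treated group, with sums of 8480 to 10700 CPM in CytoD+CK, 7640 to 8000 CPM in CytoD and 6660 to 8600 CPM in CK, against 2970 to 3570 CPM in Ctrl. Lpl weighs most in these sums, with a mean log2 CPM of 12.54 against 8.65 or less for the others. In CK against CytoD the other 6 were called higher, from log2 1.70 for Plin1 to 2.91 for Lipe, and Lpl lower (log2 -0.33). Markers of blood cells summed to at most 12 CPM in any library, with Ptprc and Adgre1 at 0 in all 12. Endothelial markers summed to at most 0.803 CPM with Emcn at 0, and of 5 erythroid and lymphoid markers 4 were at 0 throughout. The part of the adipocyte and stromal markers in the results below was not tested. In these bulk samples, fewer cells of a type and less RNA per cell cannot be told apart.

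Against Ctrl, 9 of the 10 members fell and 1 rose after CytoD, 8 fell and none rose after CK, and 8 fell and 1 rose after both compounds. Called here means an adjusted p under 0.05 (quasi-likelihood test of edgeR, Benjamini and Hochberg, over the 13534 genes tested). The share of all tested genes called lower was 18.9% in CytoD, 18.7% in CK and 21.6% in CytoD+CK, and the share called higher was 19.1%, 22.5% and 24.4% in the same order. The median log2 change of the members was -0.52 in CytoD, -0.67 in CK and -0.81 in CytoD+CK, where the medians over all tested genes were 0.021, 0.029 and 0.039. Tln2 was the member that rose, and Tns1 the one that fell after CytoD and was not called after CK or after both. These comparisons share the Ctrl libraries and are not independent of each other.

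**Figure D1:**
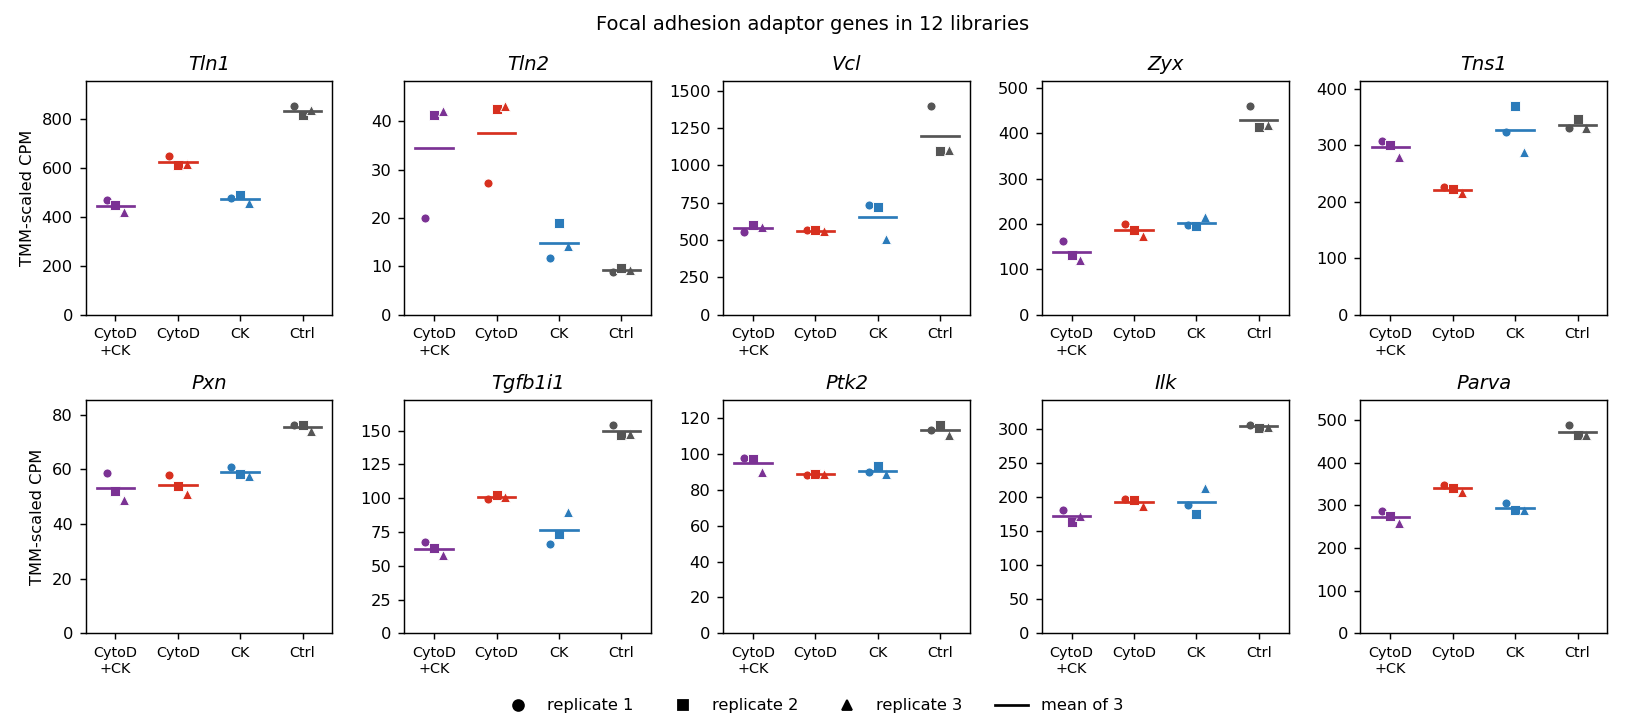
TMM-scaled CPM of each member (vertical axes, from 0) in the 12 libraries, with CytoD+CK, CytoD, CK and Ctrl from left to right, symbols for replicates 1 to 3 and a line at the mean of 3. In 8 panels every treated library lies below every Ctrl library, in the Tln2 panel every treated library lies above them, and in the Tns1 panel CK and Ctrl overlap. How many of all tested genes separate in this way was not counted.

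Tln1 and Tln2 encode the talins, the integrin activators, and moved in opposite directions. Tln1 (chromosome 4, 43531513 to 43562583 on GRCm38) stood at 469, 449 and 419 CPM in CytoD+CK, at 647, 611 and 617 CPM in CytoD and at 478, 488 and 455 CPM in CK, against 851, 814 and 834 CPM in Ctrl. All 9 treated libraries were below the Ctrl libraries, and those with CK666 were the lowest. Its log2 change was -0.90 (SE 0.06, adjusted p = 1.52e-07) in CytoD+CK, -0.42 (SE 0.06, adjusted p = 0.000212) in CytoD and -0.81 (SE 0.06, adjusted p = 7.39e-07) in CK.

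Tln2 (chromosome 9, 67217085 to 67559703) stood at 20.0, 41.4 and 42.2 CPM in CytoD+CK, at 27.3, 42.6 and 43.1 CPM in CytoD and at 11.7, 18.9 and 14.2 CPM in CK, against 8.75, 9.60 and 9.17 CPM in Ctrl. No treated library overlapped Ctrl, and replicate 1 was the lowest library of every group, by the most in both groups with CytoD. Tln2 was 3.77-fold higher in CytoD+CK (log2 1.91, SE 0.27, adjusted p = 7.37e-05) and 4.11-fold higher in CytoD (log2 2.04, SE 0.27, adjusted p = 8.71e-05). In CK its log2 difference of 0.70 (SE 0.27, 95% interval 0.12 to 1.28) missed the threshold at an adjusted p = 0.0527, and it was called under 7 of 19 alternative settings, with adjusted p from 0.00778 to 0.181. The span of Tln2 holds Mir190, whose row is at 0 in all libraries.

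Per kilobase of the deposited gene length, Tln2 made up a small part of the talin transcripts in every group. Its share was 2.92%, 6.11% and 6.64% in CytoD+CK, 2.89%, 4.69% and 4.70% in CytoD and 1.69%, 2.66% and 2.15% in CK, against 0.720%, 0.825% and 0.769% in Ctrl. The means were 5.22% ± 2.01 in CytoD+CK, 4.09% ± 1.04 in CytoD, 2.17% ± 0.483 in CK and 0.772% ± 0.0526 in Ctrl (SD, n = 3 each). Each treated group lay wholly above Ctrl, and the 2-sided exact permutation p was 0.1 for each, the smallest that 3 libraries against 3 can give.

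Vcl encodes vinculin, which ties stretched talin to actin, and it had the highest mean level per kilobase of the members in every group. Vcl (chromosome 14, 20929433 to 21033673) stood at 553, 600 and 587 CPM in CytoD+CK, at 566, 567 and 559 CPM in CytoD and at 736, 718 and 505 CPM in CK, against 1397, 1099 and 1104 CPM in Ctrl. The CytoD libraries were nearly level with each other, whereas CK replicate 3 lay below, and Ctrl replicate 1 above, the rest of their groups. Vcl was 2.07-fold lower in CytoD+CK (log2 -1.05, SE 0.13, adjusted p = 2.33e-05), 2.13-fold lower in CytoD (adjusted p = 3.63e-05) and 1.84-fold lower in CK (adjusted p = 0.000158).

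Zyx, the tension-dependent adaptor zyxin, fell the most of the members in each comparison with Ctrl. Zyx (chromosome 6, 42349828 to 42358395) stood at 164, 131 and 121 CPM in CytoD+CK, at 200, 188 and 173 CPM in CytoD and at 197, 195 and 217 CPM in CK, against 460, 414 and 418 CPM in Ctrl. The CytoD and CK libraries overlapped, and the combination lay below both. Zyx was 3.11-fold lower in CytoD+CK (log2 -1.64, SE 0.11, adjusted p = 9.4e-08), 2.30-fold lower in CytoD (log2 -1.20, SE 0.10, adjusted p = 3.89e-06) and 2.12-fold lower in CK (log2 -1.09, SE 0.10, adjusted p = 5.32e-06).

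Ilk and Parva encode core subunits of the complex that joins integrin tails to actin, and fell in all treated groups. Ilk (chromosome 7, 105736590 to 105742925) stood at 181, 164 and 172 CPM in CytoD+CK, at 197, 195 and 187 CPM in CytoD and at 188, 175 and 214 CPM in CK, against 306, 302 and 303 CPM in Ctrl. Parva (chromosome 7, 112427706 to 112591688) stood at 286, 275 and 258 CPM in CytoD+CK, at 348, 340 and 330 CPM in CytoD and at 306, 289 and 289 CPM in CK, against 489, 464 and 464 CPM in Ctrl. In neither gene did a treated library reach the Ctrl libraries, and the spread within groups was small beside that gap. The log2 change of Ilk was -0.82 (SE 0.08) in CytoD+CK, -0.65 (SE 0.08) in CytoD and -0.66 (SE 0.08) in CK. That of Parva was -0.79 (SE 0.06) in CytoD+CK, -0.48 (SE 0.06) in CytoD and -0.68 (SE 0.06) in CK, with adjusted p of 7.04e-05 or less for Parva and 3.13e-05 or less for Ilk. The span of Ilk in the table overlaps those of Rrp8 (28.6 CPM in Ctrl) and Taf10 (42.5 CPM in Ctrl), and whether counting used strand is not stated, so reads in the overlap cannot be assigned with certainty. Rrp8 and Taf10 also fell in CytoD (log2 -0.63 and -0.59) and in CytoD+CK (log2 -0.37 and -0.5). In CK neither was called (log2 -0.18 and 0.07). The part of such reads in the changes of Ilk was not tested.

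Pxn and Tgfb1i1 encode paxillin and its relative Hic-5, scaffolds of the same family, and fell to different depths. Pxn (chromosome 5, 115506702 to 115555986) stood at 58.5, 52.1 and 48.9 CPM in CytoD+CK, at 58.0, 54.1 and 50.9 CPM in CytoD and at 61.0, 58.2 and 57.5 CPM in CK, against 76.1, 76.4 and 73.9 CPM in Ctrl. Tgfb1i1 (chromosome 7, 128246871 to 128253712) stood at 67.3, 63.0 and 57.8 CPM in CytoD+CK, at 99.4, 103 and 101 CPM in CytoD and at 66.4, 73.4 and 89.6 CPM in CK, against 154, 147 and 147 CPM in Ctrl. For Pxn the treated groups overlapped each other, while for Tgfb1i1 the libraries with CK666 lay below those with CytoD alone. The log2 change of Pxn was -0.51 (SE 0.08, adjusted p = 0.000125) in CytoD+CK, -0.47 (SE 0.08, adjusted p = 0.000343) in CytoD and -0.36 (SE 0.08, adjusted p = 0.0022) in CK. For Tgfb1i1 it was -1.25 (SE 0.10, adjusted p = 4.55e-07) in CytoD+CK, -0.57 (SE 0.10, adjusted p = 0.000588) in CytoD and -0.97 (SE 0.10, adjusted p = 7.67e-06) in CK.

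Per kilobase, Tgfb1i1 was the larger part of the Tgfb1i1 and Pxn transcripts in every library. Its share averaged 59.6% ± 0.611 in CytoD+CK, 69.9% ± 1.58 in CytoD and 61.6% ± 4.24 in CK, against 71.2% ± 0.554 in Ctrl (SD, n = 3 each). The libraries with CK666, from 57.6% to 66.1%, all lay below the Ctrl libraries (exact permutation p = 0.1 for CytoD+CK and for CK, the smallest possible), and CytoD overlapped Ctrl (exact permutation p = 0.2).

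**Figure D2:**
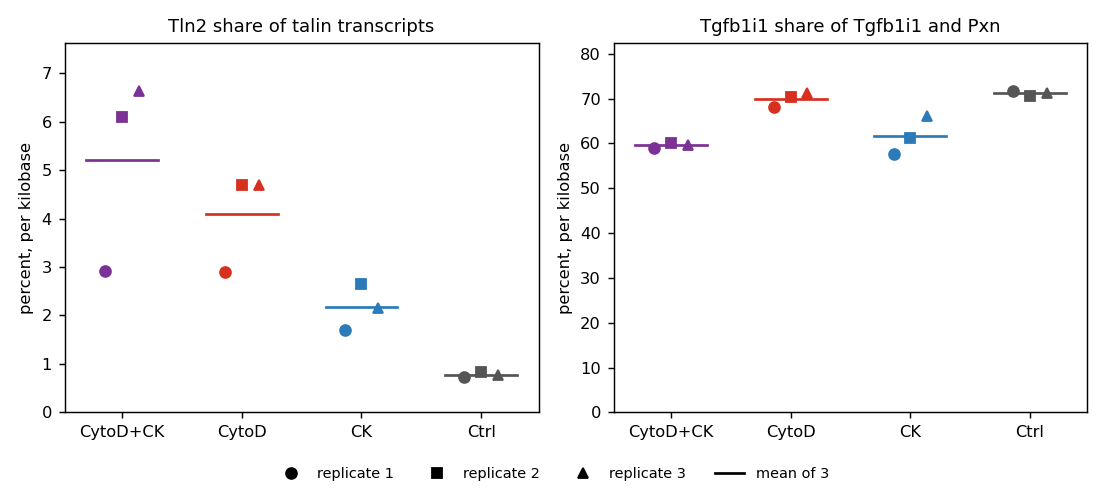
Share of each library's transcripts per kilobase, in percent from 0 on the vertical axes, that Tln2 makes up of Tln2 and Tln1 (left) and Tgfb1i1 makes up of Tgfb1i1 and Pxn (right), for CytoD+CK, CytoD, CK and Ctrl, with a line at each mean of 3. The Tln2 share is above Ctrl in every treated library, and the Tgfb1i1 share is below Ctrl in the 6 libraries with CK666.

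Ptk2, focal adhesion kinase, which paxillin brings to adhesions, had the smallest of the falls called in every treated group. Ptk2 (chromosome 15, 73205105 to 73423191) stood at 97.9, 97.5 and 90.1 CPM in CytoD+CK, at 88.3, 89.0 and 89.0 CPM in CytoD and at 90.2, 93.3 and 88.8 CPM in CK, against 113, 116 and 111 CPM in Ctrl. The treated groups lay close together and all below Ctrl. Its log2 change was -0.25 (SE 0.06, adjusted p = 0.00369) in CytoD+CK, -0.36 (SE 0.06, adjusted p = 0.000534) in CytoD and -0.32 (SE 0.06, adjusted p = 0.000944) in CK.

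Tns1, the tensin of fibrillar adhesions, fell when CytoD was given without CK666. Tns1 (chromosome 1, 73910231 to 74124447) stood at 308, 302 and 280 CPM in CytoD+CK, at 226, 224 and 216 CPM in CytoD and at 324, 370 and 288 CPM in CK, against 330, 347 and 331 CPM in Ctrl. The CytoD libraries were the lowest, those of the combination lay between them and Ctrl, and CK overlapped Ctrl. The log2 change was -0.60 (SE 0.08, adjusted p = 0.000122) in CytoD. In CK it was -0.04 (SE 0.08, 95% interval -0.22 to 0.14, adjusted p = 0.739). In CytoD+CK it was -0.18 (SE 0.08, adjusted p = 0.0893), and called under 6 of 19 alternative settings, with adjusted p from 0.006 without CK replicate 3 to 0.264.

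**Figure D3:**
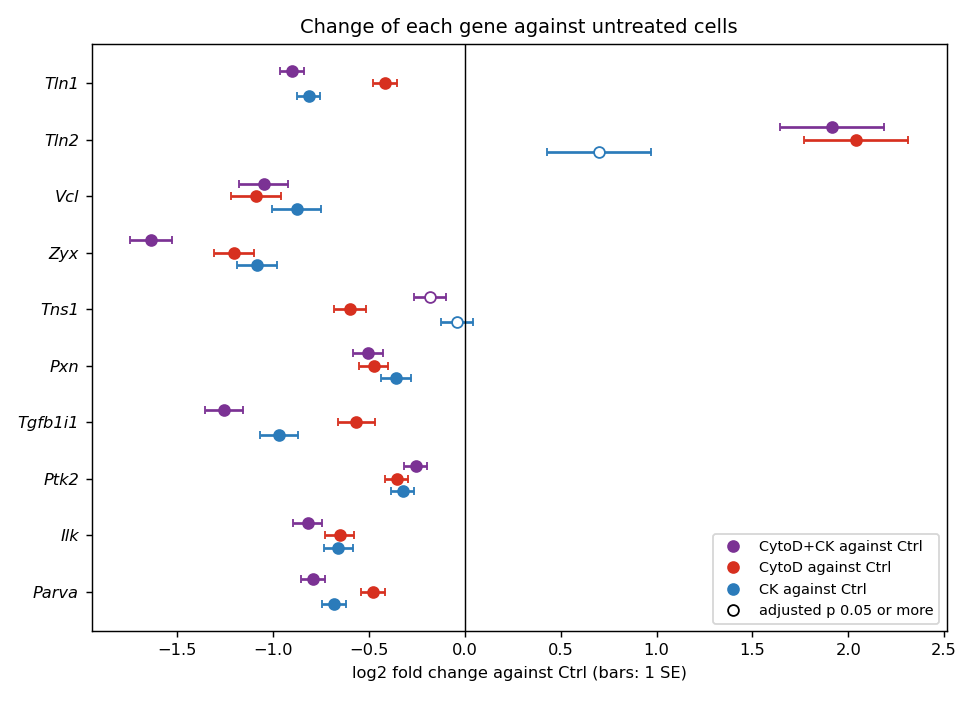
Log2 fold change of each member against Ctrl (horizontal axis) with bars of 1 SE, for CytoD+CK, CytoD and CK from top to bottom within each gene, filled where the adjusted p is under 0.05. Zyx lies farthest left, at -1.64 in CytoD+CK, Tln2 alone lies to the right, and the open circles are Tln2 in CK and Tns1 in CK and in CytoD+CK.

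Compared per kilobase of gene length, the members kept a similar order of levels across groups, with Vcl at the top and Tln2 at the bottom. Vcl averaged 111 CPM per kilobase in CytoD+CK, 108 in CytoD and 125 in CK, against 230 in Ctrl. Tln2 averaged 2.85 CPM per kilobase in CytoD+CK, 3.11 in CytoD and 1.23 in CK, against 0.756 in Ctrl. In Ctrl the order was Vcl, Zyx, Ilk, Parva, Tln1, Tgfb1i1, Tns1, Ptk2, Pxn and Tln2, and no neighbours overlapped. Zyx was below Ilk in every treated group, with 56.8 against 91.6 CPM per kilobase in CytoD+CK, whereas in Ctrl it stood at 177 against 162 for Ilk. In CytoD+CK the range of Zyx overlapped those of Parva and of Tln1, and Tgfb1i1 overlapped Ptk2. In CytoD the ranges of Zyx, Parva and Tln1 overlapped, and in CK those of Vcl and Ilk and of Tns1 and Tgfb1i1.

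Setting the compounds against each other asked which members depended on the compound used. Tns1 was higher in CK than in CytoD (log2 0.56, SE 0.08, adjusted p = 0.000234). Lower in CK than in CytoD were Tln2 (log2 -1.34, SE 0.26, adjusted p = 0.00161), Tln1 (log2 -0.40, SE 0.06, adjusted p = 0.000329), Tgfb1i1 (log2 -0.40, SE 0.10, adjusted p = 0.0061) and Parva (log2 -0.21, SE 0.06, adjusted p = 0.019). Against Ctrl, the log2 difference in CK was -0.04 for Tns1 and 0.70 for Tln2, neither of them called. Beside 1 of the 10 members called higher and 4 called lower, 22.9% of all tested genes were called higher and 16.8% lower. Whether the members differ from these shares was not tested. Ilk differed least, with a log2 difference of -0.01 and a 95% interval of -0.17 to 0.16. The 95% interval of the difference was -0.11 to 0.34 for Zyx, -0.07 to 0.49 for Vcl, -0.05 to 0.28 for Pxn and -0.10 to 0.16 for Ptk2. With a correction for gene length the calls of Tln1 (adjusted p = 0.336) and Parva (adjusted p = 0.105) were lost. That of Parva was also lost without CytoD replicate 1 or 2 (adjusted p = 0.0739 and 0.0604) and in a fit of these groups alone (adjusted p = 0.0617), and Vcl was called higher without CK replicate 3 (log2 0.34, adjusted p = 0.00641), as it was under the length correction (adjusted p = 0.0134).

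Adding CK666 to CytoD lowered Tgfb1i1, Tln1, Zyx and Parva further and raised Tns1. In CytoD+CK against CytoD the log2 changes were -0.69 (SE 0.10, adjusted p = 0.000202) for Tgfb1i1, -0.49 (SE 0.06, adjusted p = 8.94e-05) for Tln1, -0.43 (SE 0.10, adjusted p = 0.00715) for Zyx, -0.31 (SE 0.06, adjusted p = 0.00203) for Parva and 0.42 (SE 0.08, adjusted p = 0.00218) for Tns1. Here 15.8% of tested genes were called higher and 14.3% lower. For Vcl the 95% interval of the difference was -0.24 to 0.32, and for Tln2 it was -0.68 to 0.42. Ilk, at -0.17 (adjusted p = 0.12), was called lower with the length correction (adjusted p = 0.00741), in a fit of these groups alone (adjusted p = 0.0167) and without CK replicate 3 (adjusted p = 0.00834).

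Adding CytoD to CK changed fewer members. In CytoD+CK against CK, Tln2 was 2.32-fold higher (log2 1.21, SE 0.26, adjusted p = 0.00979) and Zyx 1.47-fold lower (log2 -0.55, SE 0.10, adjusted p = 0.00455), where 4.43% of tested genes were called higher and 7.17% lower. Both calls were lost in a fit of these groups alone (adjusted p = 0.0633 for Tln2 and 0.0589 for Zyx), and that of Tln2 also without CytoD+CK replicate 2 or 3 (adjusted p = 0.0504 and 0.0551). Without CK replicate 3, Vcl (log2 -0.31, adjusted p = 0.0235) and Tns1 (log2 -0.21, adjusted p = 0.0369) were called as well. Tns1, at -0.14 (adjusted p = 0.268), was also called with the length correction, at -0.40 (adjusted p = 0.0105). Tgfb1i1, at -0.29 (adjusted p = 0.0748), passed the threshold under DESeq2 (adjusted p = 0.0457) and without CK replicate 1 (adjusted p = 0.0257).

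Whether the changes with the compounds add up on the log2 scale was asked with an interaction term, which takes the effect of CytoD in CK666-treated cells less its effect in cells without CK666. The combination lowered most members by less than the sum of the changes with each compound. Vcl changed by -1.05 with both compounds, against a sum of -1.97, Zyx by -1.64 against -2.29, and Ilk by -0.82 against -1.31. The interaction was 0.92 (SE 0.18, adjusted p = 0.00585) for Vcl, 0.65 (SE 0.15, adjusted p = 0.0122) for Zyx and 0.49 (SE 0.11, adjusted p = 0.00966) for Ilk. It was also called for Tns1 (0.46, SE 0.12), Ptk2 (0.42, SE 0.08), Parva (0.37, SE 0.09) and Tln1 (0.33, SE 0.09), with adjusted p from 0.00656 for Ptk2 to 0.0262 for Tln1.

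The interaction was thus called higher for 7 members and lower for none, where 6.63% of tested genes were called higher and 7.67% lower. The median of the members was 0.40, against -0.024 over all tested genes. Genes that fell with both compounds are a closer background. Of the 1330 tested genes called lower in CytoD against Ctrl and in CK against Ctrl, 45.3% had an interaction called higher. Their median interaction was 0.42, and 90.5% of them had a positive interaction, called or not. Among these genes are 8 members, 6 of which had an interaction called higher. The interaction and the changes against Ctrl share the Ctrl libraries. Pxn (0.33, SE 0.11, adjusted p = 0.0584) and Tgfb1i1 (0.28, SE 0.14, adjusted p = 0.198) were not called, and neither was Tln2, at -0.83 (SE 0.37, adjusted p = 0.156). Vcl, Zyx, Ptk2 and Ilk were called under all 18 alternative settings of the interaction, Parva under 17 (adjusted p = 0.0508 without CytoD replicate 3), Tns1 under 12 and Tln1 under 10. With the length correction the adjusted p was 0.196 for Tns1 and 0.559 for Tln1. Pxn was called under 7 of the 18 settings, and Tln2 under 1, the replicate block (adjusted p = 0.0366). Without CK replicate 3 Tgfb1i1 was called at 0.43 (adjusted p = 0.00497), and without CytoD replicate 3 only 4 members were called.

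**Figure D4:**
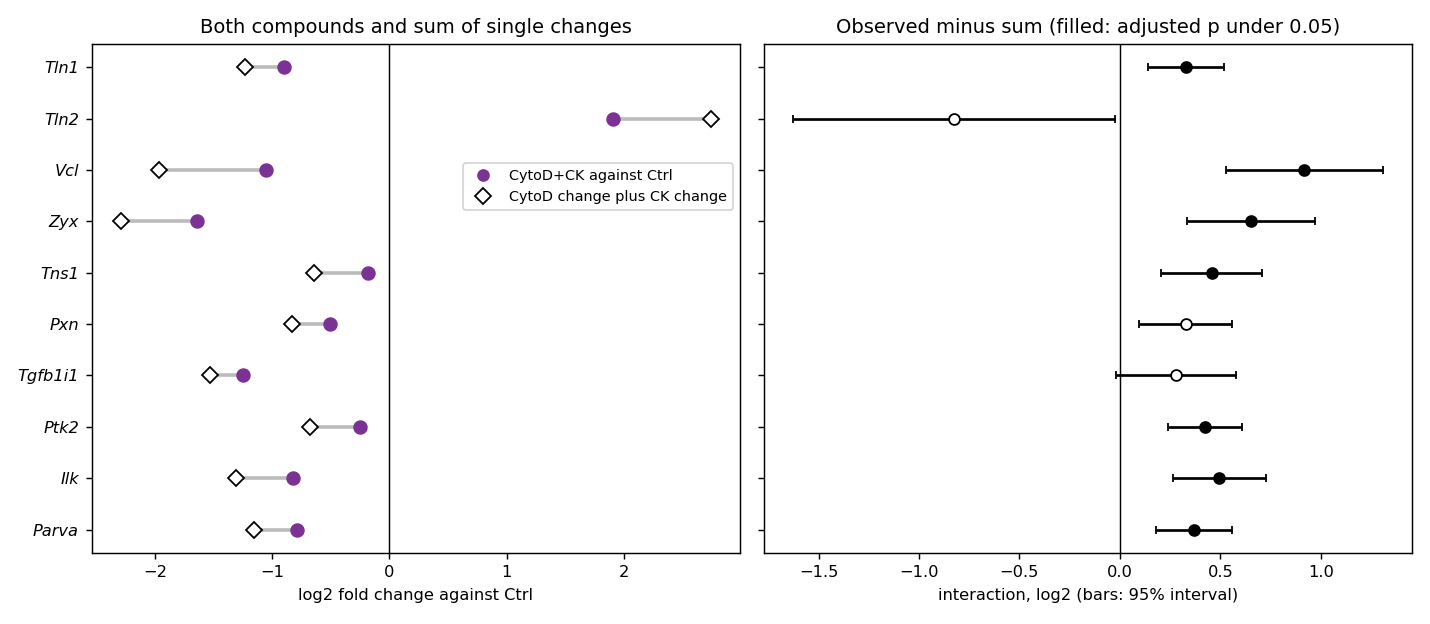
Left, the log2 change of each member in CytoD+CK against Ctrl (filled circles) beside the sum of its changes with CytoD and with CK (diamonds); right, the difference between them, the interaction, with 95% intervals and filled where the adjusted p is under 0.05. The circle lies to the right of the diamond for all members but Tln2, by 0.92 for Vcl. Of the 1330 tested genes called lower with each compound, 90.5% had a positive interaction, called or not.

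The wider machinery of the adhesion was described with a list of 62 further genes, of which 60 could be tested. In CytoD+CK 31 fell and 5 rose, in CytoD 24 fell and 6 rose, and in CK 33 fell and 5 rose, all against Ctrl. Of all tested genes 21.6%, 18.9% and 18.7% were called lower in these comparisons and 24.4%, 19.1% and 22.5% higher, and counts within small groups such as the integrin activators in CytoD lie near these shares. The median log2 changes of the list were -0.26, -0.15 and -0.33 in that order. Of 11 integrin activators and talin partners 3 fell and 1 rose in CytoD+CK, 2 fell and 1 rose in CytoD, and 5 fell and 2 rose in CK. Of 4 partners of ILK 3 fell in CytoD+CK, 2 in CytoD and 3 in CK, and of 3 other tensins 2 fell in CytoD+CK, none in CytoD and 2 in CK, with no rise called in either group of genes. Of 14 genes that link adhesions to actin, 9 fell in each treated group and 2, 2 and 1 rose in CytoD+CK, CytoD and CK. Of 10 LIM adaptors including relatives of zyxin 8 fell in CytoD+CK, 6 in CytoD and 7 in CK, and none rose. Of 7 relatives and partners of paxillin 1 fell in CytoD+CK, 1 in CytoD and none in CK, and 1, Arhgef6, rose in all 3. Of 11 genes of signalling by focal adhesion kinase and Src, 5 fell and 1 rose in CytoD+CK, 4 fell and 2 rose in CytoD, and 7 fell and 1 rose in CK.

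Lims2, a PINCH protein that binds ILK, was among the 3 most lowered genes in every treated group, at 2.63, 2.68 and 2.40 CPM in CytoD+CK, 3.54, 3.49 and 3.65 CPM in CytoD and 3.90, 3.09 and 4.57 CPM in CK, against 11.8, 11.5 and 11.9 CPM in Ctrl. Its paralog Lims1 fell in CytoD+CK (log2 -0.58, adjusted p = 0.00227) and in CK (log2 -0.67, adjusted p = 0.000993) and was not called in CytoD (log2 -0.07, adjusted p = 0.701). Csrp1, a LIM protein of actin bundles, was 3.36-fold lower in CytoD+CK, 3.25-fold in CytoD and 2.51-fold in CK. Pdlim5, a PDZ and LIM protein that binds alpha-actinin, fell by 1.48, 1.26 and 1.16 in log2 in that order, and Palld, the actin-bundling protein palladin, by 1.45, 0.48 and 1.51.

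Dlc1, a brake on RhoA that binds tensins and talin, rose the most of the list in all 3 comparisons, to 263, 417 and 378 CPM in CytoD+CK, 123, 148 and 141 CPM in CytoD and 178, 271 and 185 CPM in CK, against 68.0, 69.3 and 62.4 CPM in Ctrl. Ptk2b, the kinase Pyk2 and the only relative of focal adhesion kinase, stood at 63.4, 81.7 and 77.6 CPM in CytoD+CK, 38.0, 40.4 and 38.3 CPM in CytoD and 55.4, 73.5 and 69.8 CPM in CK, against 29.6, 30.6 and 31.3 CPM in Ctrl. Ptk2b was 2.43-fold higher in CytoD+CK (adjusted p = 1.02e-06), 1.28-fold higher in CytoD (adjusted p = 0.0229) and 2.17-fold higher in CK (adjusted p = 6.02e-06), the opposite direction to Ptk2 in each. Arhgef6, the exchange factor alpha-PIX, which reaches paxillin through GIT proteins, rose by 0.76, 0.60 and 0.84 in log2 in the same order of groups. Sorbs2, an adaptor that binds vinculin, was the third most raised of those called in CytoD (log2 0.55, adjusted p = 0.00851) and was not called in CytoD+CK (log2 -0.30, adjusted p = 0.105) or CK (log2 -0.05, adjusted p = 0.8).

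Relatives of the members did not all follow them. Tns3, a tensin like Tns1, averaged 355 CPM in CytoD+CK, 774 CPM in CytoD and 356 CPM in CK, against 727 CPM in Ctrl. It was called in CytoD+CK (log2 -1.03, adjusted p = 0.00019) and in CK (log2 -1.03, adjusted p = 0.00028) and not in CytoD (log2 0.09, adjusted p = 0.688). Tns2 was called in none of the 3 comparisons, with log2 changes of -0.05, 0.01 and 0.11 in CytoD+CK, CytoD and CK, nor was Parvb, the paralog of Parva, with 0.15, -0.29 and 0.18. Lpxn, the paxillin relative leupaxin, was barely present, with group means from 0.333 to 0.589 CPM, and was not called. Fermt2, the integrin activator kindlin-2, fell by 0.50, 0.43 and 0.61 in log2 in CytoD+CK, CytoD and CK. Of the relatives of zyxin, Lpp fell in CytoD+CK (log2 -0.50, adjusted p = 0.0355) and in CK (log2 -0.73, adjusted p = 0.00574), and Trip6 in CytoD+CK alone of the 3 comparisons (log2 -0.28, adjusted p = 0.025). CK replicate 3 lay well below CK replicates 1 and 2 for Lpp (321, 344 and 177 CPM) and Tns3 (423, 404 and 240 CPM), and likewise for Lims1 and Palld. It lay above them for others, such as Csrp1 (167, 169 and 206 CPM). Changes of the listed genes without that library were not examined. Kank4, of the talin-binding KANK family, had the lowest log2 change in CytoD+CK and in CK, but reached levels near the counting limit there, with means of 0.0852 CPM in CytoD+CK, 1.13 CPM in CytoD and 0.0833 CPM in CK, against 0.687 CPM in Ctrl. Tns4, also low, averaged 0.369 CPM in CytoD+CK, 0.735 CPM in CytoD and 0.479 CPM in CK, against 1.26 CPM in Ctrl, and was called lower in CytoD+CK and CK.

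**Figure D5:**
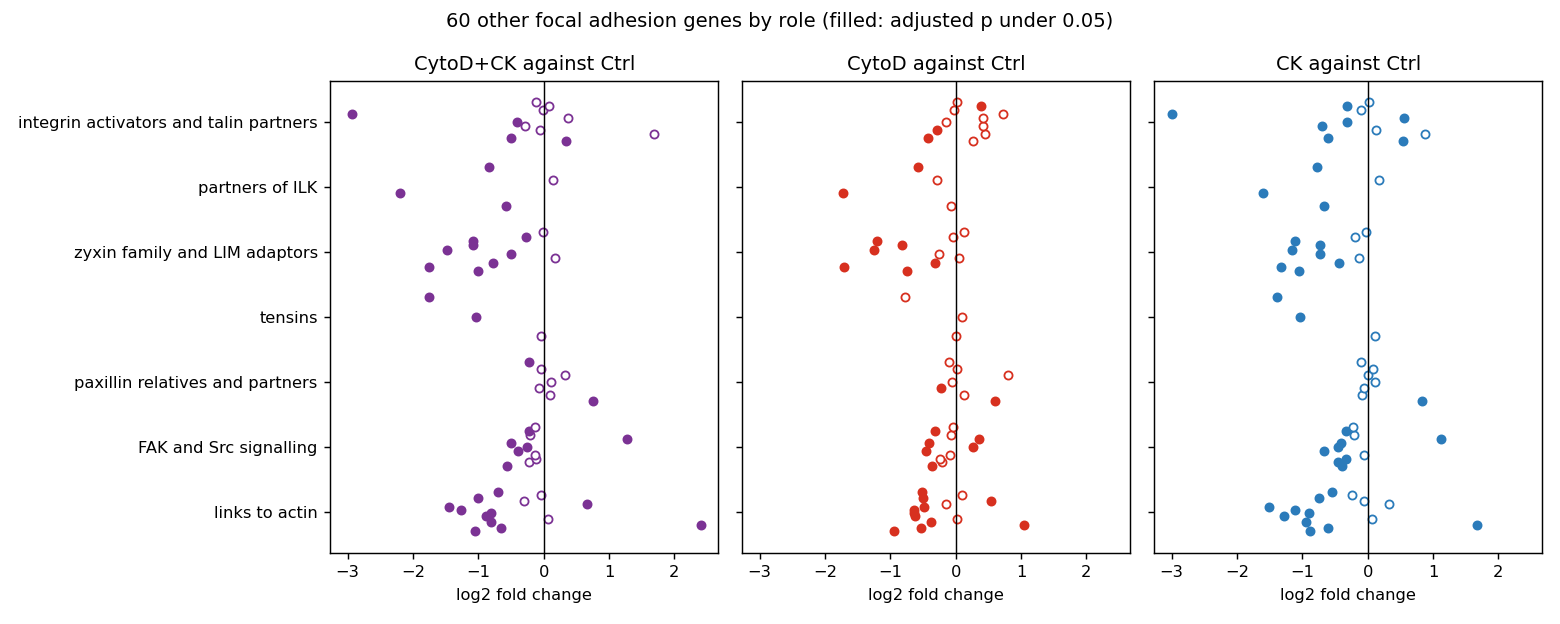
Log2 fold change against Ctrl (horizontal axes) of the 60 other focal adhesion genes tested, in rows by role, for CytoD+CK, CytoD and CK from left to right, filled where the adjusted p is under 0.05. The links to actin and the LIM adaptors lie mostly to the left of 0, 1 filled point among the relatives and partners of paxillin, Arhgef6, lies to the right in each panel, and Dlc1 lies farthest to the right in the bottom row of each panel, at 2.41 in CytoD+CK.

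For the interaction, 18 of these 60 genes were called higher and 3 lower, with a median of 0.18, where 6.63% of all tested genes were called higher and 7.67% lower. Of the 22 listed genes called lower with CytoD and with CK, 17 had an interaction called higher, beside 45.3% of all genes so lowered. Csrp1 had the highest value, at 1.28. In CytoD+CK against CytoD 5 of the 60 were called higher and 17 lower, against 15.8% and 14.3% of all tested genes. In CytoD+CK against CK 4 were called each way, close to the 4.43% and 7.17% of all tested genes, and in CK against CytoD 8 were called higher and 17 lower, against 22.9% and 16.8%.

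The transcripts of regulators named above were lower in part. Srf stood at 59.2, 62.2 and 59.1 CPM in CytoD+CK, at 63.1, 70.8 and 65.8 CPM in CytoD and at 59.7, 93.1 and 92.3 CPM in CK, against 99.2, 108 and 106 CPM in Ctrl. It fell by 0.79 in log2 in CytoD+CK (adjusted p = 0.000301) and by 0.65 in CytoD (adjusted p = 0.00193), and in CK, where replicate 1 lay far below the others, by 0.35 (adjusted p = 0.0472). Mkl1, which encodes the cofactor MRTF-A, fell by 0.47, 0.36 and 0.71 in CytoD+CK, CytoD and CK, and Mkl2, which encodes MRTF-B, was called in none of the 3. Yap1 fell by 0.34, 0.26 and 0.41 in the same order, and Wwtr1, which encodes TAZ, was called lower in CK alone of the 3 comparisons (log2 -0.31, adjusted p = 0.0336). Transcript levels do not report the location of these proteins in the cell.

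Across the 12 libraries, which share their groups, the members fell into a common pattern with exceptions. Tln1 and Parva were the pair with the highest correlation of log2 CPM (r = 0.981). Tln2 correlated negatively with each of the other 9, from -0.91 with Pxn to -0.516 with Tln1, and Tns1 was close to 0 with Tgfb1i1 (0.046) and Tln1 (0.054). Among 11530 genes, the one most like Zyx was Pdlim7 (r = 0.997), and the one most like Parva was Rsu1 (r = 0.993). The most alike were Itga1 for Tln2 (0.991), Txndc5 for Tln1 (0.992), Axl for Pxn (0.990), Pdia6 for Ilk (0.989) and Kpnb1 for Ptk2 (0.973). For Vcl the leading genes were Pdlim5 (0.981), Ccdc6 (0.976) and Msrb3 (0.975), for Tgfb1i1 Itprip (0.988), Cacnb3 (0.983) and Actb (0.983), and for Tns1 Pi4ka (0.968), Pacsin2 (0.952) and Rdh11 (0.948). The 12 points come from 4 groups, so libraries of 1 group are not separate conditions.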

How the data were processed

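RNA from 12 libraries (4 groups of 3) was analysed. The authors deposited whole-number counts per gene, per the file headers; per the submitters' processing notes, CASAVA 1.9, TopHat 12.0.6 and HTSeq were used and the build named is hg19, although symbols are those of mouse genes and the coordinates match GRCm38. Deposited RPKM values were not used. All counts were even. The third Ctrl library is spelled Ctr1 in its title and was placed by its treatment label.

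Counts were filtered with filterByExpr (minimum count 10), scaled by TMM and fitted in edgeR 4.0.16 (R 4.3.3) with a mean for each group and no replicate block. The 7 comparisons were tested 2-sided with the quasi-likelihood test and adjusted by Benjamini and Hochberg over 13534 genes within each comparison, with no adjustment across comparisons. The common biological coefficient of variation was 0.115. The SE is the log2 fold change over the square root of F, and log2 CPM for correlations used a prior count of 2. The fit was tested on simulated data with known changes. Shares per kilobase were compared by exact permutation.

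The members, the lists, the rule for named genes and the tests were chosen with earlier results of these data known. The rule names all members, the 3 most raised and 3 most lowered called genes of the wider list in each comparison with Ctrl, fixed relatives and regulators, and for each member the most correlated gene (3 for Vcl, Tns1 and Tgfb1i1) of mean CPM at least 1. Csrp1 in the interaction, and the library and group remarks, were chosen after values were seen. Of 62 listed genes 62 were found, 2 under older symbols, and of 35 markers 35 were found. Alternatives were RLE size factors, DESeq2 1.42.0, no filter, halved counts, a length correction, the compared groups alone, a replicate block and leaving out each library; leaving out libraries for the shares was added after seeing the data.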

Additional observations from a re-analysis of the deposited data

Results flagged for a closer look

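For 7 members the effect of CytoD in CK666-treated cells differed from its effect in cells without CK666, by edgeR's test of the interaction. The difference was 0.918 in log2 for Vcl, 0.652 for Zyx, 0.495 for Ilk, 0.456 for Tns1, 0.423 for Ptk2, 0.369 for Parva and 0.327 for Tln1. In each the change with CytoD was less negative, or was positive, when CK666 was present. Of all tested genes 6.63% had an interaction called higher, as had 45.3% of the 1330 genes called lower with each compound. With the length correction the calls of Tln1 (adjusted p = 0.559) and Tns1 (adjusted p = 0.196) were lost. Groups of 3 are too small for a formal test of outlying libraries.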

How the results depend on the processing

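For 70 results (10 members in 7 comparisons), 1320 recomputed values were compared with the reported ones. Direction and side of the threshold held in 1254; in 24 a call was lost, in 32 gained and in 10 the sign turned, all 10 for differences that were not called. The counts of members called in each comparison with Ctrl stayed within 1.5 times under every alternative. With the length correction Tns1 in CK against Ctrl was 0.218 and Ptk2 in CytoD+CK against CK was -0.02. Leaving out 1 library gave -0.134 to 0.003 for Tns1 in CK against Ctrl (0.003 without CK replicate 3), -0.31 to 0.15 for Tln2 and -0.103 to 0.028 for Pxn in CytoD+CK against CytoD, and -0.121 to 0.06 for Ilk in CK against CytoD. In a fit of the compared groups alone, CytoD+CK against CK called 459 genes and 0 members, where 1570 and 2 are reported, and CK against CytoD called 3558 genes, where 5380 are reported; fewer samples enter that fit. Leaving out 1 library gave 745 to 2563 genes and 1 to 4 members in CytoD+CK against CK (745 without CytoD+CK replicate 3, 778 without replicate 2, 2563 without CK replicate 2; 4 members without CK replicate 3). For the interaction, leaving out 1 library gave 1094 to 3396 genes, where 1935 are reported, and 4 to 9 members: 1094 without CytoD replicate 2, 1115 without CytoD replicate 3, 1112 and 1114 without Ctrl replicates 2 and 3, and 3396 without CK replicate 3. The cause was not tested. RLE size factors moved the median of all genes by at most 0.035 in log2.

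Same-numbered libraries deviated together weakly and not throughout, with correlations from -0.079 to 0.256, 4 of 18 above 0.1. Libraries of other numbers had correlations from -0.184 to 0.174, with 3 of 36 above 0.1. Of the 12 libraries, 8 correlated best with their own number. These values do not settle whether the numbers pair the libraries, and the labels do not say what a number marks. The numbers were therefore not taken as pairs. With a replicate block the interaction was called for 9 members (8 higher with Pxn added, and Tln2 lower, adjusted p = 0.0366) and 2078 genes, CK against Ctrl for 9 members with Tln2 added (adjusted p = 0.0089), and the other comparisons for the number of members reported.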
